A study of Mus musculus with 4 samples.

Results

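Proliferating T cells were picked out among CD4+ CD44+ GITR- T cells that had been sorted from the brain and the spleen of wild-type C57BL/6 mice with experimental autoimmune encephalomyelitis (EAE), an inflammation of the central nervous system induced by immunization. A barcode counted as dividing when at least 4 of the 6 cell cycle genes Mki67, Top2a, Birc5, Ube2c, Pclaf and Rrm2 were detected. Detection means at least 1 unique molecular identifier (UMI), the count of 1 captured RNA molecule. The rule was met by 38 of 3954 brain barcodes (0.961%, exact 95% interval 0.681 to 1.32) and by 111 of 7966 spleen barcodes (1.39%, 1.15 to 1.68), 149 of 11920 kept barcodes and 12984 deposited ones. All animals were at day 60 after immunization, all carried the same WT genotype, and per the labels 18718 sorted cells from brain and 38000 from spleen went into the droplet run. The number, age and pooling of the animals, and whether both tissues came from the same ones, are not given in the sources used here. Each tissue gave 1 RNA and 1 T cell receptor (TCR) library, so no test between groups was possible. Intervals reflect the error of counting and nothing else. The 3916 and 7855 kept barcodes that did not meet the rule are called other cells.

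A T cell that divides copies its DNA in S phase, when histones and nucleotide-making enzymes are produced, and then builds the spindle and separates its chromosomes in G2 and mitosis. Resting memory T cells are held out of the cycle by inhibitors and antiproliferative factors and live on interleukin 7. Antigen or cytokines such as interleukin 2 and 15 bring them into the cycle. In EAE, Th1 and Th17 helper cells, marked by interferon gamma and interleukin 17A, are the known effector cells in the central nervous system.

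The values of the 6 rule genes chose the members and are given as a description only. Mki67, which coats mitotic chromosomes, was detected in 38 of 38 brain and 108 of 111 spleen dividing cells, with a median of 22.5 and 23 UMIs per cell. It was also detected in 12.6% and 6.40% of the other cells. Birc5, a subunit of the chromosomal passenger complex, was detected in 32 and 99 dividing cells and in 0.204% and 0.496% of other cells. Top2a, which untangles DNA, was detected in 35 and 101 dividing cells and in 21.7% and 7.85% of other cells. Its level in dividing cells was 994 and 1091 CPM, the gene's UMIs per 1000000 UMIs summed over the cells of a group. Just inside the threshold, 9 brain and 22 spleen cells had 4 genes detected and a median of 18 and 15 UMIs of the 6 genes. Just outside it, 20 and 37 cells had 3 genes and a median of 6 UMIs in each tissue. All 6 genes were detected in 21 brain and 55 spleen cells.

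**Figure D1:**
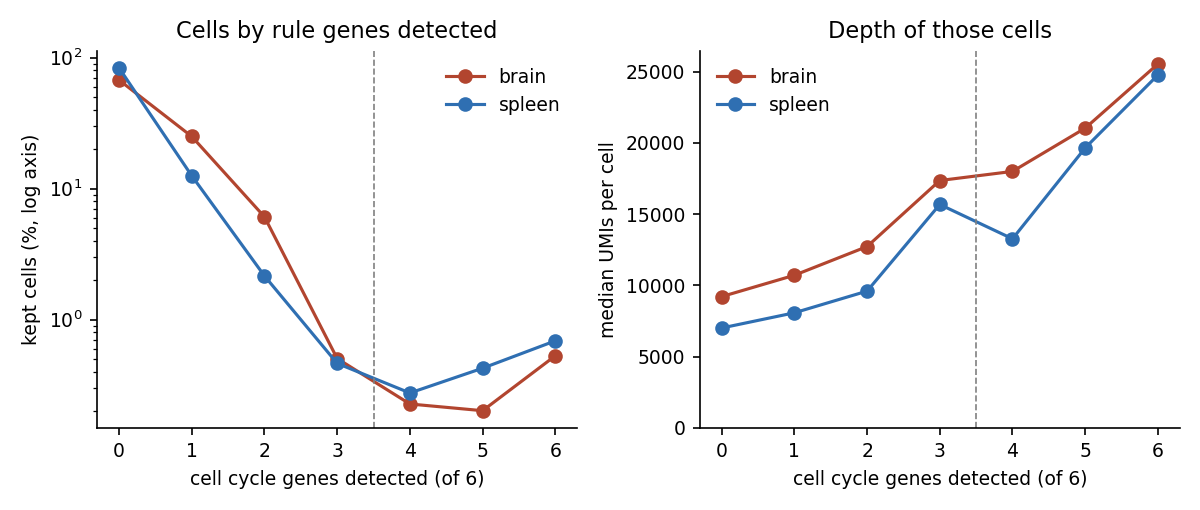
Left, percent of kept cells (log axis) by the number of rule genes detected, in brain (red) and spleen (blue); right, their median UMIs. The dashed line marks the threshold of 4 genes. The median UMI number was 25539 in the 21 brain and 24769 in the 55 spleen cells with all 6 genes, and 9209.5 and 7006 in cells with none.

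Promoter sequence is shown for 4 of the rule genes because transcription of late cell cycle genes is known to depend on 2 short elements, the cell cycle genes homology region (CHR, letters TTTGAA) and the CCAAT box (CCAAT). Each sequence is the 120 bases before the RefSeq transcript start in mouse build GRCm38.p6, 5′ to 3′ on the strand of the gene. Capitals mark CHR or CCAAT matches on either strand. They lie at chr7:135716380-135716499 (minus strand, Mki67), chr11:99024190-99024309 (minus strand, Top2a), chr2:164769809-164769928 (plus strand, Ube2c) and chr9:65890203-65890322 (plus strand, Pclaf).
Mki67: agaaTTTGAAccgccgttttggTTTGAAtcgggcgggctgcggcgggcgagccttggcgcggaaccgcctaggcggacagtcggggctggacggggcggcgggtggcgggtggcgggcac
Top2a: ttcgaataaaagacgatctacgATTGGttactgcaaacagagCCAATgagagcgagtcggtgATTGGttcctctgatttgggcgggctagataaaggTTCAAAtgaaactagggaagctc
Ube2c: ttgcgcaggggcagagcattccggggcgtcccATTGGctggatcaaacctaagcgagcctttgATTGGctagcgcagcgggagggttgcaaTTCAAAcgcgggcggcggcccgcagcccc
Pclaf: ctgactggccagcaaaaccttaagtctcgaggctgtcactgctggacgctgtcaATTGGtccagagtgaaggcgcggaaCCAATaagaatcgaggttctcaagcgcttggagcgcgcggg
Over 250 bases before the start, a CHR match was present in 3 of the 6 rule genes (Mki67, Top2a, Ube2c) and a CCAAT match in 5 of 6. Of the 2 rule genes not printed, Birc5 held neither match and Rrm2 held 1 CCAAT and 0 CHR matches. Among 32851 windows of the same length of all genes, 16.0% held a CHR and 33.8% a CCAAT match. Of the 36 windows matched by symbol to 34 of the 40 genes of the G2/M list, 33.3% held a CHR and 80.6% a CCAAT match. Of the 33 windows matched to 28 of the 38 genes of the S phase list, the shares were 15.2% and 63.6%. Of the 19 windows matched to 19 of the 29 genes of the histone list, they were 47.4% and 84.2%, so CHR matches were not confined to late genes. A match describes the letters and shows no binding.

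The dividing cells were deep libraries and, but for 1 barcode, T cells. Their median UMI number was 21794.5 in brain and 20429 in spleen, against 9811 and 7155 in other cells, and 7 brain and 50 spleen dividing cells lay above the 99th percentile of their tissue. Since detection depends on depth, every barcode was also thinned at random to 4000 UMIs. Then 23 of 3607 brain (0.638%) and 73 of 7127 spleen barcodes (1.02%) met the rule, all of them members before thinning. A paired receptor was found in 38 of 38 brain and 100 of 111 spleen dividing cells. Of the 10 spleen dividing cells with no receptor chain, 9 held UMIs of Cd3e, a TCR complex subunit. The remaining one held 473 UMIs of Hbb-bs and 381 of Hba-a1, both haemoglobin chains, and 0 of Cd3e and Cd4. That barcode goes against the T cell label. Without barcodes holding at least 5 Hbb-bs UMIs, 514 genes were higher and 295 lower in dividing spleen cells (520 and 292 with them), and 236 and 140 between dividing brain and spleen cells (234 and 142). Cd4 was at 248 and 280 CPM in dividing brain and spleen cells and at 340 and 344 CPM in other cells, and no dividing cell of either tissue held a Cd8a UMI after thinning (0 of 38 and 0 of 110, which allows 7.89% and 2.73%). Without thinning, 2.63% and 0.901% of dividing cells held one. Cd8b1, another CD8 marker gene, was detected after thinning in 0 of 38 dividing brain and 5 of 110 dividing spleen cells (4.55%). The shares of other cells were 3.22% and 4.43%. Without thinning Cd8b1 was in 10.5% and 14.4% of dividing cells of brain and spleen, against 6.46% and 6.44% of others. The summed levels of markers of other cells are given next. The 8 B and plasma cell markers summed to 130 and 262 CPM in dividing and 169 and 333 CPM in other cells of brain and spleen, with 4 of 8 at 0 in the dividing cells of each tissue. The 7 myeloid and microglia markers summed to 161, 115, 163 and 94.1 CPM in the same order, with 6 and 4 of 7 at 0 in dividing cells. The 9 glial, endothelial and erythroid markers were all at 0 in dividing brain cells and summed to 1.71 CPM in other brain cells. In spleen they summed to 370 CPM in dividing and 19.5 CPM in other cells, and 2 of 2 measured genes were higher, none of them without the barcodes with haemoglobin RNA. In dividing spleen cells, that 1 barcode held 473 of 473 Hbb-bs and 381 of 382 Hba-a1 UMIs. The 5 CD8, NK and gamma-delta markers summed to 5.58 and 36.9 CPM in dividing and other brain cells and 30.5 and 58.1 CPM in spleen, with 3 and 1 of 5 at 0 in dividing cells. The libraries shared 31 RNA barcodes, none with the same receptor and none dividing. Doublets were handled through the receptors only, and a barcode was dropped when its productive chains numbered over 1 for TRB or over 2 for TRA. That filter removed 2 brain and 6 spleen barcodes that met the rule.

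Genes of DNA replication and mitosis were higher in the dividing cells of both tissues. A gene was called at a ratio of at least 2 or at most 0.5 to the other cells of its tissue, among genes averaging at least 25 CPM over both groups. Of the S phase list, 33 of 33 measured in brain and 32 of 32 in spleen were higher, beside 9.59% of 5946 and 8.66% of 6006 genes overall. Of the G2/M list, 34 of 34 and 35 of 36 were higher, and of the histone list 17 of 18 and 18 of 18. The cells were chosen by the 6 rule genes, which these lists leave out, but the contrast is the same, so the counts describe the selection and nothing is read from them. Low genes entered only through their level in dividing cells, which left 5 of 38 S phase genes in brain and 6 in spleen, and 6 and 4 of 40 G2/M genes, unmeasured. The median log2 ratio was 3.21 and 2.83 for the S phase list, 5.53 and 6.50 for the G2/M list and 4.14 and 4.61 for the histone list, and 0.04 and 0.01 for all genes. The linker histone gene H1f5 stood at 1432 CPM in dividing and 15.9 CPM in other brain cells, and at 2032 and 6.35 CPM in spleen. Stmn1, which encodes a microtubule regulator, was at 1131 and 12.3 CPM in brain and at 581 and 13.95 CPM in spleen. Ccna2, the S and G2 cyclin gene, was at 204 and 0.421 CPM in brain and at 292 and 0.260 CPM in spleen. Outside these lists, the genes with the highest ratios were also known cell cycle genes. In brain these were Aspm, Kif4, Esco2, Spc24, Cdca5, Neil3, Kntc1, Mxd3, Pimreg, Rad51ap1, Ska1 and H3c3. Aspm, a spindle pole gene, stood at 104 against 0.843 CPM in brain and at 130 against 0.433 CPM in spleen. Kif14, Kif18b, Prr11 and Shcbp1 joined them among the leading spleen genes.

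A score of S phase against G2/M UMIs varied widely among the dividing cells of both tissues. Each cell was thinned to 4000 UMIs, and the S phase list's share of its S phase and G2/M UMIs was taken, a share that had a median of 53.4% in brain (quartiles 27.3 and 73.4) and 39.1% in spleen (17.2 and 70.1). The G2/M list made up at least 75% of these UMIs in 9 of 38 brain cells (23.7%, 11.4 to 40.2) and 43 of 110 spleen cells (39.1%, 29.9 to 48.9). The S phase list made up at least 75% in 9 of 38 brain and 22 of 110 spleen cells (20%, 13.0 to 28.7). The intervals of brain and spleen overlap in both cases, and 7 and 30 cells lay within 5 points of a threshold, so these are ranges of a score and not cell types. The score rests on few UMIs in some cells, with 4 of 38 brain and 6 of 110 spleen cells holding fewer than 10 UMIs of the 2 lists after thinning. In CPM, 0 of 36 S phase genes and 2 of 39 G2/M genes differed by 2-fold between dividing brain and spleen cells.

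**Figure D2:**
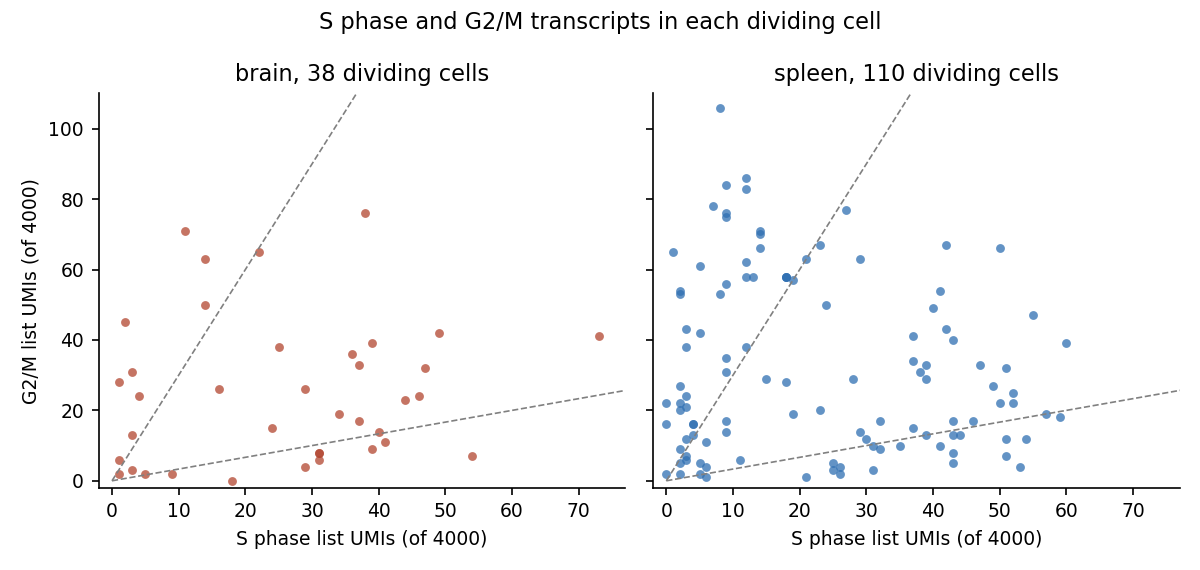
UMIs of the S phase list (horizontal) and of the G2/M list (vertical) in each dividing cell after thinning to 4000 UMIs, for brain (left) and spleen (right). Dashed lines mark S phase shares of 25% and 75%. In spleen 43 of 110 cells lie to the left of the steep line and in brain 9 of 38.

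Several antiproliferative and quiescence genes, Btg1 and Tsc22d3 among them, were lower in dividing cells of both tissues, while 2 inhibitors of the INK4 family were higher. Of 19 measured genes of the brakes and quiescence list, 8 were lower, 3 higher and 8 within 2-fold in brain, and of 18 in spleen 9 were lower, 2 higher and 7 within 2-fold. Over all genes, 5.03% were lower in brain and 4.86% in spleen. Against the 484 brain and 652 spleen other cells within the 10th to 90th percentile of the dividing cells' UMI number, the lower counts were 5 and 4. In that comparison 217 genes in all were lower in brain and 133 in spleen. Btg1, an antiproliferative factor of resting lymphocytes, stood at 354 CPM in dividing and 1243 CPM in other brain cells (ratio 0.284, 0.254 to 0.318), and at 173 and 678 CPM in spleen (0.255, 0.231 to 0.280). Its relative Btg2 was at 216 against 746 CPM in brain and 87.8 against 208 CPM in spleen. In spleen Btg2 was not called lower without barcodes above the 99th percentile of UMIs, nor against other cells of the same UMI range. Tsc22d3, a glucocorticoid-induced gene, was at 77.0 against 265 CPM and 37.9 against 238 CPM. Txnip, an inhibitor of glucose uptake and no list member, was 0.154 of its level in other spleen cells (118 against 766 CPM) and 0.657 in brain (283 against 431 CPM). Slfn5, a Schlafen family gene, stood at 3.35 against 83.6 CPM in brain and 19.0 against 109 CPM in spleen. Cdkn2c, an INK4 inhibitor that E2F factors induce, was higher, at 74.7 against 16.8 CPM in brain and 82.8 against 12.8 CPM in spleen. Cdkn2d was the other such inhibitor called higher in both tissues.

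Cdkn1a, which encodes the p21 inhibitor, was higher in the dividing cells of both tissues. Cdkn1a was also higher in brain than in spleen, in dividing and in other cells. It stood at 215 CPM in dividing and 70.7 CPM in other brain cells (ratio 3.04, 2.62 to 3.52) and at 19.8 and 1.07 CPM in spleen (18.4, 12.4 to 27.3). In spleen its mean over both groups was below 25 CPM, so it was not among the called genes there. After thinning, 12 of 38 dividing brain cells held a Cdkn1a UMI (31.6%, 17.5 to 48.7) against 13.9% of other brain cells, and 4 of 110 dividing spleen cells (3.64%) against 0.356%. B cell barcodes of the spleen, which show the level of free RNA (126 after thinning, median 5450 UMIs before), held it in 0 of 126. At 2500 UMIs the shares were 23.7% (11.4 to 40.2) and 9.98% in brain, and 5.41% (2.01 to 11.4) and 0.255% in spleen.

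Of the G1 cyclins and E2F axis, 7 of 12 measured genes were higher and 1 lower in brain, and 6 of 11 higher and 0 lower in spleen, beside 9.59% and 8.66% of all genes higher. As in the S phase list, genes low in other cells could enter only through their level in dividing cells. These cells were chosen by cell cycle genes, so the higher counts describe the selection and nothing is read from them. E2f1, the activating E2F factor, was at 82.5 against 4.63 CPM in brain and 43.3 against 2.84 CPM in spleen. Its spleen mean over both groups was below 25 CPM, so it was not among the measured genes there. Ccnd2, the D cyclin that links growth signals to the cycle, was the 1 lower gene in brain, at 149 against 349 CPM, and at 231 against 393 CPM in spleen. In brain Ccnd2 was not called lower with at least 3 rule genes, nor without barcodes above the 99th percentile of UMIs. Biosynthesis genes were higher in part, 7 of 15 in brain and 3 of 14 in spleen. Ran, the nuclear transport GTPase gene, was 4.05-fold higher in brain and 3.86-fold in spleen, and the beta tubulin gene Tubb5 7.07-fold and 4.44-fold. Shmt2, a mitochondrial enzyme of one-carbon metabolism, stood at 137 against 37.2 CPM in brain and 53.1 against 33.1 CPM in spleen. Of 11 glycolysis genes 1 was higher in brain, a share near that of all genes (Tpi1, 2.08-fold, and under 2-fold under 4 of the alternatives), and 4 in spleen (Gapdh, Tpi1, Pgam1, Pgk1). Against other spleen cells in the same UMI range 1 glycolysis gene was higher.

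Some early-response genes, a group that T cell stimulation and tissue handling both induce, were lower in dividing than in other cells. Of 13 such genes measured in brain, 5 were lower, 0 higher and 8 within 2-fold, and of 9 in spleen 4 were lower, 0 higher and 5 within 2-fold, with the same counts against other cells of the same UMI range. The share of all genes that were lower was 5.03% in brain and 4.86% in spleen. With at least 3 rule genes in place of 4, 1 early-response gene was lower in brain. Junb, an AP-1 subunit gene, stood at 1627 CPM in dividing and 5636 CPM in other brain cells, and at 193 and 569 CPM in spleen. Fos, another AP-1 subunit gene, was at 803 against 1477 CPM in brain (ratio 0.544) and 22.7 against 67.1 CPM in spleen. Per cell, the 15 genes had a median of 5375 CPM in dividing and 11500 CPM in other brain cells after thinning, and of 875 and 1500 CPM in spleen. None of the 38 dividing brain cells reached the 90th percentile of other brain cells. The median per cell of the heat shock and handling stress list was 7000 against 6500 CPM in brain and 5000 against 3750 CPM in spleen, and 1 gene was higher and 1 lower of 12 measured in brain and of 11 in spleen.

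Part of the genes of naive and central memory T cells were lower in dividing cells. Of 9 measured in brain 7 were lower and 0 higher, and of 11 in spleen 6 were lower and 0 higher. Among all genes, 5.03% were lower in brain and 4.86% in spleen. Against other cells of the same UMI range the counts were 1 in brain and 5 in spleen, so the brain count changed when depth was matched. Against those cells 217 genes in all were lower in brain and 133 in spleen, where 299 and 292 were lower without matching. Ccr7, the lymph node homing receptor gene, was at 46.8 against 119 CPM in brain, where 1 cell held 21 of its 42 UMIs, and 112 against 332 CPM in spleen. Satb1, a chromatin organizer of T cells, stood at 148 against 313 CPM in brain and 123 against 472 CPM in spleen. Igfbp4, a secreted factor gene high in naive T cells, was at 25.1 against 196 CPM in spleen, and 1 dividing cell held 70.5% of its 61 UMIs.

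For most lineage factors, the share of dividing cells with a UMI had an interval that overlapped that of other cells. With 38 dividing brain cells these intervals are wide, so overlap does not show that the helper states were the same. Shares of cells with a UMI after thinning are given first for the lineage factors. In brain, Tbx21, the Th1 factor, was detected in 6 of 38 dividing cells (15.8%, 6.02 to 31.3) and 22.0% of other cells. Gata3, the Th2 factor that other T cells also express, was detected in 11 of 38 (28.9%, 15.4 to 45.9) and 23.8%. Foxp3, the regulatory T cell factor, was detected in 3 of 38 (7.89%, 1.66 to 21.4) and 4.79%. Cxcr5 and Bcl6, which mark follicular helper cells, were detected in 0 of 38 each, which allows 7.89%, against 2.16% and 10.8% of other brain cells. None of these brain shares differed beyond its interval except that of Bcl6 at 4000 UMIs. At 2500 UMIs Bcl6 was detected in 1 of 38 dividing cells (2.63%, 0.0666 to 13.8) and 7.08% of others, which the interval holds.

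In spleen, the difference in Tbx21 depended on the depth of thinning. At 4000 UMIs it was detected in 23 of 110 dividing cells (20.9%, 13.7 to 29.7) against 10.8% (10.1 to 11.6) of other cells and 1.59% of B cell barcodes. At 2500 UMIs it was detected in 12 of 111 dividing cells (10.8%, 5.71 to 18.1) and 7.78% of others, where the interval holds the share of other cells. Without thinning the shares were 43.2% and 14.9%. Seen from the other side, 2.93% (1.87 to 4.37) of spleen cells with a Tbx21 UMI at 4000 UMIs and 1.37% (1.10 to 1.69) of those without one were dividing. Tbx21 stood at 68.0 CPM in dividing and 40.4 CPM in other spleen cells (ratio 1.68, 1.43 to 1.97), and at 61.3 and 72.0 CPM in brain. Foxp3 was detected in 8 of 110 dividing spleen cells (7.27%, 3.19 to 13.8) and 9.99% of others, and Gata3 in 29 (26.4%, 18.4 to 35.6) and 20.6%. Cxcr5 was detected in 11 (10%, 5.10 to 17.2) and 8.39%. B cells express Cxcr5 themselves, so B cell barcodes give no background for it. In summed UMIs Foxp3 went in opposite directions, at 70.3 against 31.5 CPM in brain (ratio 2.23, 1.71 to 2.88) and 35.0 against 70.0 CPM in spleen (0.501, 0.399 to 0.620). The brain ratio was under 2 with TMM scaling. Dividing brain cells held 63 Foxp3 UMIs in 6 cells.

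Ifng was higher in brain than in spleen, in dividing and in other cells, while Il17a in dividing cells rested on single cells. Ifng, the Th1 cytokine, was detected in 17 of 38 dividing brain cells (44.7%, 28.6 to 61.7) and 37.1% of other brain cells, and in 11 of 110 dividing spleen cells (10%, 5.10 to 17.2) and 5.27% of other spleen cells (2.38% of B cell barcodes). Its level was 282 against 317 CPM in brain and 33.0 against 20.7 CPM in spleen. Il17a, the Th17 cytokine, was detected in 2 of 38 dividing brain cells and 8.13% of others, and in 1 of 110 dividing spleen cells and 6 of 7017 others. It was carried by single cells, since 1 brain cell held 170 of 171 UMIs and 1 spleen cell 14 of 15. Il2, the T cell growth factor gene, stood at 52.3 against 12.3 CPM in spleen, where 1 cell held 105 of 127 UMIs and the level without it was 9.18 CPM. Lta, encoding lymphotoxin, stood at 209 against 54.3 CPM in brain, and at 61.2 CPM without 1 cell that held 71.7% of its UMIs, and was under 2-fold higher without barcodes above the 99th percentile of UMIs. Of the helper lists, 0 of 12 Th1 genes were higher and 3 lower in brain (Ccl4, Ccl5, Il18r1), and of 11 in spleen 1 was higher (Tnf) and 1 lower (Ccl5). Of these, Tnf in spleen passed 2-fold no longer under 3 alternatives, and Il18r1 in brain and Ccl5 in each tissue under 2. Of all genes, 9.59% were higher and 5.03% lower in brain, and 8.66% and 4.86% in spleen. Of the Th17 list, 0 of 8 in brain and 0 of 4 in spleen passed 2-fold in either direction. Against other brain cells in the same UMI range, 5 of the 13 listed Th17 genes were lower, beside 217 genes in all. The Th17 count in brain thus depended on which other cells were compared, and no direction is read from it.

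**Figure D3:**
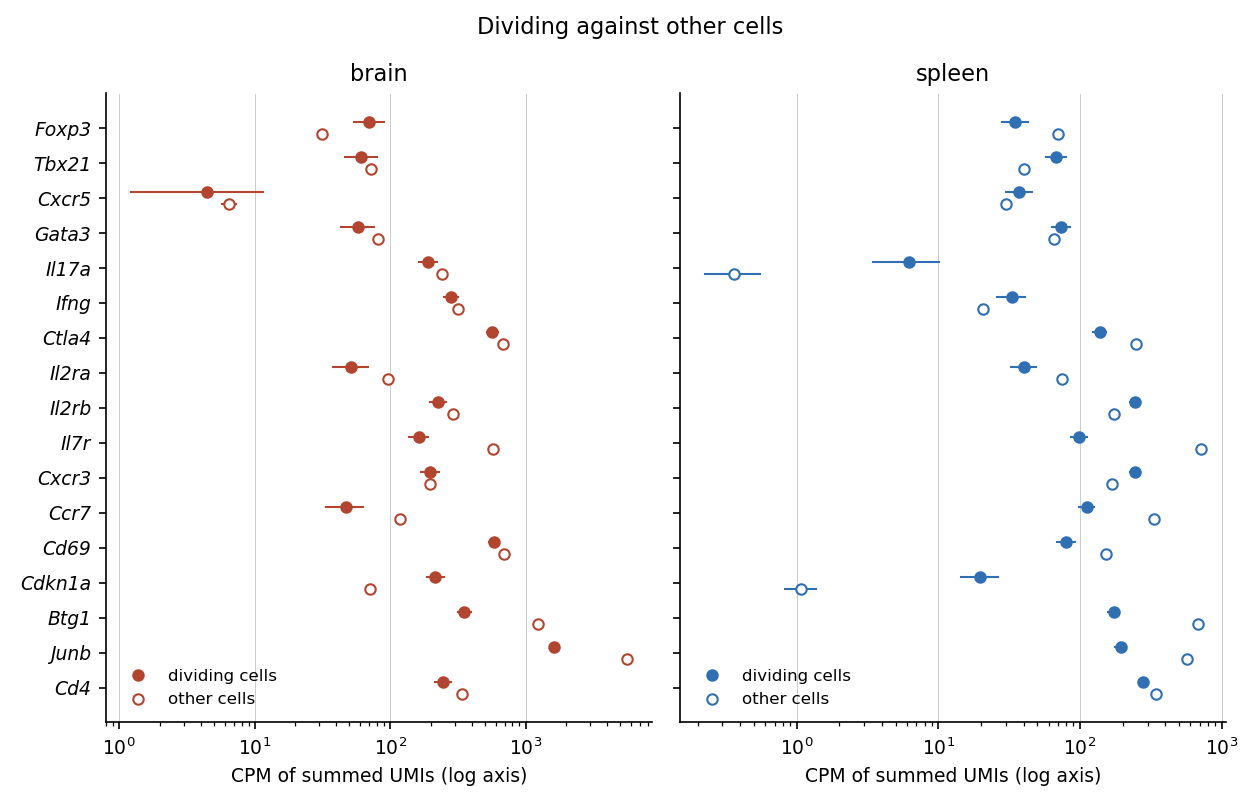
Level of helper, receptor and cycle-related genes in CPM of summed UMIs (log axis) in dividing (filled) and other cells (open) of brain (left) and spleen (right). Bars are 95% Poisson intervals, counting error only, and most open points have bars shorter than the symbol. Il7r, Btg1 and Junb lie lower and Cdkn1a higher in dividing cells of both tissues.

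Il7r was lower in the dividing cells of both tissues. Il7r, the interleukin 7 receptor alpha chain gene, stood at 163 CPM in dividing and 577 CPM in other brain cells (ratio 0.282, 0.238 to 0.332), and at 98.5 and 715 CPM in spleen (0.138, 0.121 to 0.156). It was detected in 16 of 38 dividing brain cells (42.1%, 26.3 to 59.2) against 68.6% of others, and in 23 of 110 dividing spleen cells (20.9%, 13.7 to 29.7) against 71.0%. At 2500 UMIs the shares were 26.3% (13.4 to 43.1) and 59.0% in brain, and 21.6% (14.4 to 30.4) and 62.1% in spleen. Of the cytokine receptor list, 6 of 17 measured genes were lower in brain and 4 of 15 in spleen, and 0 were higher. Beside them, 5.03% of all genes were lower in brain and 4.86% in spleen. Il7r, Il4ra and Il6ra were lower in both tissues. Ifngr1, an interferon gamma receptor chain gene, was at 509 against 944 CPM in brain and 113 against 279 CPM in spleen. Against other spleen cells in the same UMI range only 1 spleen gene of the list was lower, beside 133 genes in all. Il2rb, the chain shared by the interleukin 2 and 15 receptors, was detected in 63 of 110 dividing spleen cells (57.3%, 47.5 to 66.7) and 30.7% of others, and in 60.5% and 55.7% in brain. At 2500 UMIs the spleen shares were 35.1% (26.3 to 44.8) and 24.6%. Il2ra, the high-affinity interleukin 2 receptor chain gene, was not higher, at 51.3 against 96.3 CPM in brain and 40.4 against 74.8 CPM in spleen.

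Several receptors of effector T cells were detected more often in dividing than in other spleen cells, at 4000 and at 2500 UMIs. Cxcr3, a chemokine receptor gene of Th1 cells, was detected in 57 of 110 (51.8%, 42.1 to 61.4) against 29.1% of others and 0.794% of B cell barcodes. Icos, a costimulatory receptor gene, was detected in 58.2% (48.4 to 67.5) against 37.7%, and Pdcd1, the gene of the inhibitory receptor PD-1, in 27.3% (19.2 to 36.6) against 10.7%. Itgb1, the beta 1 integrin gene, was detected in 64.5% (54.9 to 73.4) against 41.8%, with a level of 788 against 414 CPM. At 2500 UMIs the shares in dividing and other spleen cells were 33.3% (24.7 to 42.9) and 23.4% for Cxcr3, and 39.6% (30.5 to 49.4) and 28.5% for Icos. They were 16.2% (9.90 to 24.4) and 8.62% for Pdcd1, and 59.5% (49.7 to 68.7) and 34.9% for Itgb1. Nkg7, a gene of cytotoxic granule release, was detected in 27 of 38 dividing brain cells (71.1%, 54.1 to 84.6) against 41.0%, and in 37 of 110 dividing spleen cells (33.6%, 24.9 to 43.3) against 18.5% and 0 of 126 B cell barcodes. At 2500 UMIs its brain shares were 42.1% (26.3 to 59.2) and 34.5%, which overlap, and its spleen shares 29.7% (21.4 to 39.1) and 16.6%. In brain, Cxcr3 (42.1% and 41.2%), Cxcr6 (44.7% and 52.4%), Ctla4 (44.7% and 53.8%) and Cd69 (65.8% and 72.8%) had intervals that hold the share of other cells, and so had Icos at 4000 UMIs (52.6%, 35.8 to 69.0, against 67.6%) but not at 2500 UMIs (31.6%, 17.5 to 48.7, against 56.1%). Ccr6, the Th17 chemokine receptor gene, was detected in 0 of 38 dividing brain cells, which allows 7.89%, and 7.48% of others, so no difference was detectable. Of 11 brain and 10 spleen integrin and adhesion genes, and of 10 costimulatory receptor genes in each tissue, none passed 2-fold.

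Early-response and residency genes were higher in dividing brain than in dividing spleen cells. Of 6006 genes, 234 (3.9%) were at least 2-fold higher in dividing brain cells and 142 (2.36%) in dividing spleen cells. With TMM factors of edgeR, which moved the median of all genes by -0.11, the counts were 186 and 189. Among other cells, 4.95% of 5836 measured genes stood higher in brain and 1.58% in spleen. Of 13 early-response genes, 12 were higher in dividing brain cells, and 13 of 13 in other brain cells. Fos stood 35.4-fold higher in dividing brain than dividing spleen cells, from 720 and 55 UMIs, and Jun 22.8-fold. Nr4a2, an orphan nuclear receptor gene induced by stimulation, stood at 119 and 3.71 CPM. Of 11 residency genes, 8 were higher in dividing brain cells, and 11 of 14 in other brain cells. Cd69, a retention receptor gene, was at 589 and 79.9 CPM in dividing and 697 and 152 CPM in other cells. Rgs2, a G protein signalling regulator gene, was at 439 and 14.8 CPM in dividing cells. Bhlhe40, a transcription factor gene needed for cytokine production, was at 297 and 53.1 CPM in dividing cells, and at 745 and 46.8 CPM in other cells.

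Most naive and central memory genes were higher in dividing spleen than in dividing brain cells. Of 11 naive and central memory genes, 8 were at least 2-fold lower in dividing brain than in dividing spleen cells, and 7 of 11 were lower among other cells. The shares of all genes lower in brain were 2.36% among dividing and 1.58% among other cells. Dapl1 had 329 UMIs in dividing spleen cells (136 CPM) and 0 in dividing brain cells, which allows 3.35 CPM, against 31.3 CPM in other brain cells. Cd27, a costimulatory receptor gene lost on late effector cells, was at 37.9 and 138 CPM in dividing brain and spleen cells. Of 6 follicular helper genes, 4 were lower in dividing brain cells (Pdcd1, Tox2, Slamf6, Btla), and Pdcd1 stood at 24.5 and 70.9 CPM. Among other cells, 2 of 6 follicular helper genes were lower and 1 higher in brain. Pdcd1 stood at 68.3 and 59.8 CPM in the other cells of brain and spleen. Its ratio passed 2-fold no longer with at least 3 rule genes. Of 6 Th17 genes, 5 were higher in dividing brain cells, with Il17a resting on 1 cell. Among other cells, 6 of 8 measured Th17 genes were higher in brain too. Il1r1, the interleukin 1 receptor gene, stood at 48.0 and 5.77 CPM, with 46.5% of its brain UMIs in 1 cell. Tmem176b, an ion channel gene associated with Th17 cells, stood at 161 and 35.8 CPM. Ifng was 8.56-fold higher in dividing brain than in dividing spleen cells. Lta stood at 209 and 26.8 CPM, and at 61.2 CPM in brain without the 1 cell that held most of its UMIs. Igfbp7 stood at 59.1 and 1.65 CPM in dividing cells of brain and spleen, and under 2-fold apart without barcodes above the 99th percentile of UMIs.

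**Figure D4:**
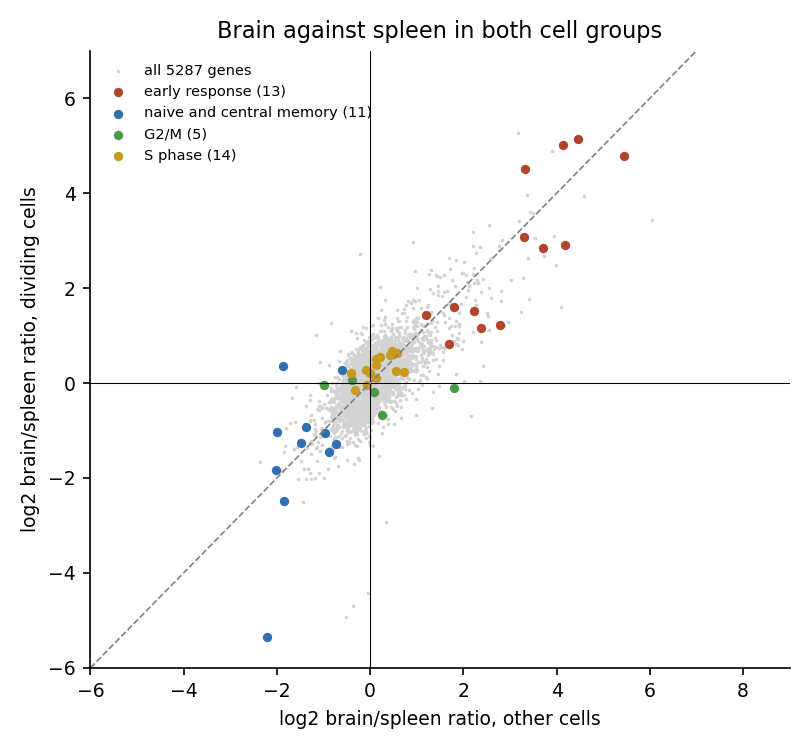
Log2 ratio of brain to spleen CPM for each gene measured in both comparisons, among other cells (horizontal) and dividing cells (vertical). The axes come from different cells of the same libraries. Genes with 0 UMIs in a group are drawn at the level of 3 UMIs. Early-response genes (red) lie above 0 on both axes, and the S phase (yellow) and G2/M genes (green) that are drawn lie between -1 and 1 among dividing cells. Only a part of these 2 lists is drawn, since 14 S phase and 5 G2/M genes were measured among other cells.

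Receptor sequences were not used by the rule and tell which clones the dividing cells belong to. A clonotype joined cells with the same V genes and CDR3 nucleotides of both chains. The 38 dividing brain cells fell into 36 clonotypes and the 100 dividing spleen cells with a paired receptor into 93. In spleen, dividing cells belonged to a clonotype of at least 2 cells more often than others, 29 of 100 (29%, 20.4 to 38.9) against 10.8% (10.1 to 11.6) of 6608. Against spleen cells in the same UMI range the share of the others was 11.1%. In brain the shares were 18 of 38 (47.4%, 31.0 to 64.2) and 41.2% (39.4 to 42.9), which overlap.

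The dividing share was highest in small clones of the spleen. It was 71 of 5963 (1.19%, 0.931 to 1.4995) among spleen cells alone in their clonotype, 28 of 532 (5.26%, 3.53 to 7.52) in clonotypes of 2 to 4 cells, and 1 of 213 (0.469%, 0.0119 to 2.59) in clonotypes of 5 or more cells. In brain the shares were 20 of 1840 (1.09%, 0.665 to 1.67), 13 of 569 (2.28%, 1.22 to 3.88) and 5 of 723 (0.692%, 0.225 to 1.61). A dividing cell adds to the size of its own clonotype, so the class of 2 to 4 cells also holds pairs made of 2 dividing cells. In clonotypes of 10 or more cells the dividing share could not be told from that of all paired cells, 1.21% in brain and 1.49% in spleen. The 18 brain clonotypes of 10 or more cells held 431 cells, of which 3 were dividing (0.696%, 0.144 to 2.02), and the largest, of 67 cells, held none, which allows 4.48%. The 3 such spleen clonotypes held 85 cells and no dividing one, which allows 3.53%.

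**Figure D5:**
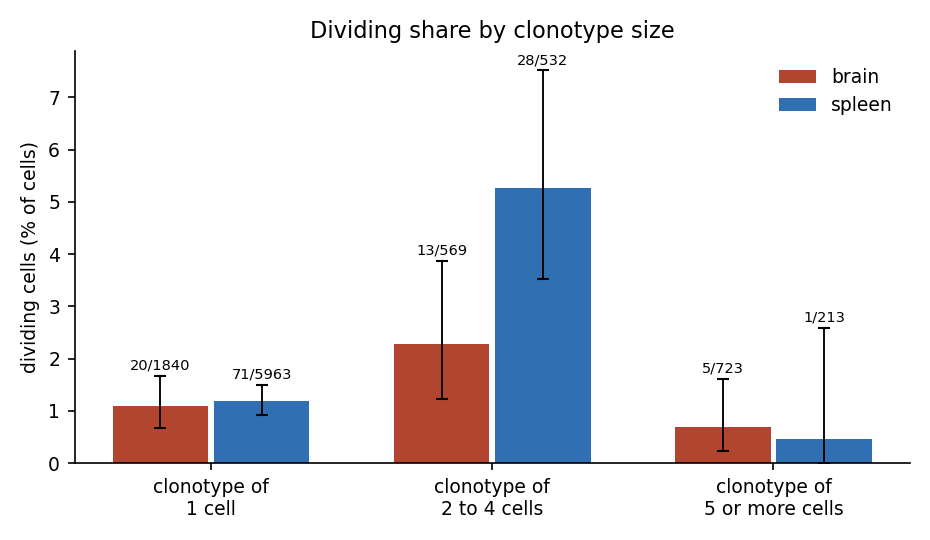
Share of cells that were dividing (percent) by the size of their clonotype within the tissue, in brain (red) and spleen (blue). Bars carry exact 95% intervals and the number of dividing cells over all cells. The spleen class of 2 to 4 cells, at 28 of 532, is above the spleen classes of 1 cell and of 5 or more cells.

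Another dividing cell of the same clonotype was found for 14 of 100 dividing spleen cells (14%, 7.87 to 22.4) against 0.560% of other spleen cells, and for 4 of 38 dividing brain cells (10.5%, 2.94 to 24.8) against 3.14%. These cells formed 7 spleen and 2 brain clonotypes with 2 dividing cells each, and 3 of the spleen ones held no further cell in either tissue. A non-dividing cell of the same clonotype was found for 23 of 100 dividing spleen cells (23%, 15.2 to 32.5) against 10.7% (9.96 to 11.5) of other spleen cells. In brain it was found for 18 of 38 dividing cells (47.4%, 31.0 to 64.2) against 41.0% of others, which the interval holds. Clonotypes found in both tissues held 5 of 38 dividing brain cells (13.2%, 4.41 to 28.1) against 18.2% of others, and 10 of 100 dividing spleen cells (10%, 4.90 to 17.6) against 6.04%, without a difference beyond the intervals. TRAV11 joined to TRAJ18, the alpha chain that natural killer T cells share, was carried by 4 of 38 dividing brain cells (10.5%, 2.94 to 24.8) against 3.72%, and 10 of 100 dividing spleen cells against 9.62%.

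The CDR3 nucleotide sequences of 5 clonotypes are printed because they carry more than 1 dividing cell, and 1 of them divided in both tissues. Each name gives the V genes, and sequences run 5′ to 3′ as deposited.
TRBV26 with TRAV7-5, beta: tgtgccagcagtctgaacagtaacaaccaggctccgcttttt
TRBV26 with TRAV7-5, alpha: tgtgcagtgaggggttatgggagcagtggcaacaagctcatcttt
TRBV26 with TRAV6-3, beta: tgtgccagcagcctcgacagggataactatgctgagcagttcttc
TRBV26 with TRAV6-3, alpha: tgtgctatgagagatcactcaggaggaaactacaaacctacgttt
TRBV12-2+TRBV13-2 with TRAV11, beta: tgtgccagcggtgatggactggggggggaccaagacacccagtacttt
TRBV12-2+TRBV13-2 with TRAV11, alpha: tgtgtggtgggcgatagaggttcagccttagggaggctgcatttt
TRBV3 with TRAV14D-3-DV8, beta: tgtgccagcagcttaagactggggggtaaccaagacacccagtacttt
TRBV3 with TRAV14D-3-DV8, alpha: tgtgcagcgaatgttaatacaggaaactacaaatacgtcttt
TRBV31 with TRAV13N-2, beta: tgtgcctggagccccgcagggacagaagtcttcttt
TRBV31 with TRAV13N-2, alpha: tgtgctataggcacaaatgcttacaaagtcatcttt
The clonotype of TRBV26 with TRAV7-5 held 57 brain and 60 spleen cells, of which 2 brain cells and no spleen cell were dividing. Both dividing cells held Ifng and Nkg7 UMIs, as did 51 and 49 of its 55 other brain cells. The clonotype of TRBV26 with TRAV6-3 held 11 brain and 8 spleen cells and was the 1 clonotype with a dividing cell in each tissue. Both of its dividing cells held Gata3 UMIs, as did 7 of 10 other brain and 5 of 7 other spleen cells. Il17a was detected in its dividing spleen cell. The clonotype of TRBV12-2+TRBV13-2 with TRAV11 carried the invariant alpha chain, and 2 of its 4 brain cells were dividing. In the clonotype of TRBV3 with TRAV14D-3-DV8, 2 of 4 spleen cells were dividing and none of 7 brain cells. The clonotype of TRBV31 with TRAV13N-2 consisted of 2 dividing spleen cells.

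Within clonotypes, dividing cells were compared with non-dividing cells that carry the same receptor in the same tissue, 18 cells against 97 in 16 brain clonotypes and 23 against 37 in 19 spleen clonotypes. Btg1 was lower in the dividing cells of 16 of 16 brain and 15 of 19 spleen clonotypes, with a median difference of -1.58 and -1.497 in log2(CPM + 10). Junb was lower in 15 of 16 and 16 of 19 (-1.26 and -2.35). Il7r was lower in 12 of 16 and 10 of 19, higher in 2 of each and equal, mostly at 0, in the rest (-1.95 and -1.59). Kdm7a, a histone demethylase gene, was lower in 13 of 16 and 17 of 19, and Slfn5 in 9 of 16 and 13 of 19 and higher in none. Stmn1 was higher in 15 of 16 and 19 of 19. Ccnd2 was lower in 15 of 16 and 14 of 19. No count over all genes is given beside these, so how often any gene was lower cannot be read from them. Except for Kdm7a, these genes were reported above from summed UMIs, and the cells compared here are part of those cells. Stmn1 was reported there beside the lists that describe the selection. The counts are therefore no independent support for the ratios above.

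Within clonotypes, helper and effector genes differed in how often they were lower in dividing cells. In spleen, Icos was lower in the dividing cells of 15 of 19 clonotypes (median -0.89) and Cxcr3 in 12 of 19 (-0.72). Itgb1 was higher in 9 of 19 and lower in 10, and Nkg7 higher in 5 and lower in 8. Tcf7, a transcription factor gene of memory and naive T cells, was lower in 15 of 19 spleen and 11 of 16 brain clonotypes. In brain, Il2rb was lower in 14 of 16 (-1.13), Cxcr6 in 12 of 16 (-1.23) and Bhlhe40 in 13 of 16 (-2.04). Ifng was higher in 9 of 16 and lower in 6. Foxp3 was at 0 on both sides in every clonotype compared. Cells of a clonotype share a library and a lineage, and each dividing value rests on 1 or 2 cells, so these counts are a description. Dividing cells as a group were also deeper libraries than other cells, and no count over all genes is given here either.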

How the data were processed

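RNA and T cell receptor libraries of 1 brain and 1 spleen sort were used. The authors deposited whole UMI counts per gene and barcode, and 1 receptor contig per line with read and UMI counts. The submitters' processing notes list Cell Ranger 9.0.0. The notes name genome builds without a role, so no coordinates were taken from the files. Barcodes were kept with at least 500 genes, 1000 UMIs, at most 10% mitochondrial UMIs, at most 1 productive TRB and 2 TRA chains and 0 Cd79a UMIs. The 44386447 brain and 65191435 spleen UMIs deposited came down to 41244345 and 60201985 in kept barcodes. No doublet caller was run.

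UMI counts were summed per tissue and cell group and scaled to CPM. Ratios have exact conditional binomial and shares exact Clopper-Pearson 95% intervals. A count of 0 allows 3 counts. With 1 library per group there was no test. Shares of cells with a UMI used cells thinned once to 4000 UMIs (repeated at 2500 UMIs), which left out 347 brain and 838 spleen other cells and 1 dividing spleen cell. The 141 barcodes with at least 3 Cd79a UMIs and no receptor chain served as B cell barcodes. Clonotypes used the TRA chain with most UMIs.

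Genes were named by rank of the interval bound nearest 1 (up to 12 per direction and comparison) and by list (up to 4 per comparison), beside the rule, sort and helper genes. Genes in the text outside this rule were chosen after their values were seen. Members and gene lists were chosen with earlier results of these data known. Aldoa, listed under 2 identifiers, 6 older histone names and Znf683 had no unique match. Alternatives covered the rule, filters, scaling (edgeR 4.0.16), depth and clonotype definition. The ratio and thinning code was tested on simulated counts. Python 3.11.15 with numpy 2.4.6, scipy 1.17.1 and pandas 2.3.3 was used. Values of some genes are not reported here.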

Additional observations from a re-analysis of the deposited data

Results flagged for a closer look

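For 5 genes the ratio of dividing to other cells was below 0.5 in brain and above 2 in spleen. The difference between the tissues was not tested, since each had 1 library, and every one of these ratios rests on few UMIs or few cells. Ccl1, a chemokine gene, had a ratio of 0.0352 in brain (3 UMIs in dividing cells) and 3.5004 in spleen (5 UMIs, 4 of them in 1 cell). Ccr8, the receptor gene for Ccl1, had a ratio of 0.322 in brain (25 UMIs) and 2.05 in spleen (37 UMIs in 16 cells). Gzmb, the granzyme B gene, had a ratio of 0.454 in brain (13 UMIs in 3 cells) and 6.18 in spleen, where 1 cell held 63 of 144 UMIs. Gzmk, another granzyme gene, had a ratio of 0.391 in brain (17 UMIs in 7 cells) and 2.27 in spleen (55 UMIs in 14 cells). Il2 had a ratio of 0.399 in brain (7 UMIs) and 4.25 in spleen, where 1 cell held 105 of 127 UMIs.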

How the results depend on the processing

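No paired analysis was possible because each tissue had 1 library and no replicate. Of 185 values recomputed under alternatives, 156 moved by less than their interval or by less than 1.5 times, and 29 moved further. With at least 3 of the 6 genes, 1.47% of brain and 1.86% of spleen cells were dividing, and 122 genes were lower in dividing brain cells. With at least 5 genes the spleen share was 1.12%. Without barcodes above the 99th percentile of UMIs it was 0.774%, and 242 genes were lower in dividing brain than dividing spleen cells. Thinning every barcode to 4000 UMIs gave 0.638% and 1.02%. With TMM factors 448 genes were higher and 496 lower in dividing brain cells, a shift of the median of -0.18, against 570 and 299 without them. Down to a mean of 5 CPM, 1039 genes were higher and 818 lower in brain, 896 and 754 in spleen, and 653 and 565 between dividing brain and spleen cells. Against other cells of the same UMI range, 133 genes were lower in dividing spleen cells, and 45.0% of other brain cells were in clonotypes of at least 2 cells and 19.8% in clonotypes of both tissues. Without thinning, the dividing shares in brain were 55.3% for Tbx21, 55.3% for Gata3 and 65.8% for Ifng, and in spleen 43.2% for Tbx21, 26.1% for Cxcr5, 64.0% for Gata3 and 21.6% for Ifng. Thinned to 2500 UMIs, they were 10.8% for Tbx21 and 18.02% for Gata3 in spleen. With clonotypes by TRB alone, 20.4% of other brain cells were in clonotypes of both tissues and 12.4% of other spleen cells in clonotypes of at least 2 cells. The cause of these moves was not tested. Leaving out barcodes with haemoglobin RNA, an alternative chosen after seeing the data, moved none of 11 values that far. The other-cell shares at 2500 UMIs were also added after seeing the data. With 38 and 111 dividing cells, differences in shares smaller than the printed intervals could not be detected.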
